A study of Homo sapiens with 18 samples.

Results

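Methylation of 7 steroid and nuclear receptor genes was measured around their 5′ ends in 3 established human cancer cell lines: HCT15 (colorectal carcinoma), DU145 and PC3 (both prostate cancer). The genes, taken as listed out of 20136 protein coding gene symbols, were ESR1, ESR2, PGR, NR3C1, NR3C2, VDR and THRB. Each promoter window reached 1000 bp either side of the gene's 5′ end or of a main alternative transcript 5′ end on GRCh37, which gave 19 of the 27023 windows of all protein coding genes. Windows are called P1, P2 and so on from the most upstream, and distances are given from the window's 5′ end in the direction of transcription.

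Untreated DNA of each cell line was profiled by reduced representation bisulfite sequencing (RRBS), which counts methylated and unmethylated reads at single CpGs of a restriction-cut part of the genome, and by MBD-seq with 5 capture kits (MethylMagnet, MethylCollector, MethylCollector Ultra, MethylCap and MethylMiner), in which a methyl-CpG binding protein domain pulls down methylated fragments. There was 1 library per cell line for RRBS and 1 for each cell line and kit for MBD-seq, 18 in all. No library had a replicate, so every test below compares libraries and not cell lines, and intervals cover counting error only. For DU145, the GEO labels and the study's methods name different suppliers, and the methods give it a later passage than the other two cell lines.

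Nuclear receptors are transcription factors, many of which bind small lipophilic ligands. Most hold a DNA-binding domain of zinc fingers and a ligand-binding domain, and a ligand-bound receptor recruits coregulators at response elements of its target genes. Several receptor genes use alternative promoters and first exons, and dense methylation of CpGs around a promoter commonly accompanies a silent promoter. Expression was not measured here.

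The sequences below are the stretches of at most 300 bases, free of UTR, that held the most CpGs called different between cell lines (adjusted p under 0.05 and a difference of at least 25 percentage points) in each gene's windows. They are shown because they hold called CpGs that the results describe. They were read from GRCh37, run 5′ to 3′ on the strand of the gene, and carry each CG in capitals. For ESR1 the stretch lies at chr6:152129472-152129771 on the plus strand, at -770 to -471 bp from the P5 5′ end. Its first 28 bases are coding sequence of exon 1 of the MANE transcript, the reference transcript agreed between annotation projects, and the rest is intron. Of its 41 CpGs, 24 were called.

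ESR1 P5, 300 bases: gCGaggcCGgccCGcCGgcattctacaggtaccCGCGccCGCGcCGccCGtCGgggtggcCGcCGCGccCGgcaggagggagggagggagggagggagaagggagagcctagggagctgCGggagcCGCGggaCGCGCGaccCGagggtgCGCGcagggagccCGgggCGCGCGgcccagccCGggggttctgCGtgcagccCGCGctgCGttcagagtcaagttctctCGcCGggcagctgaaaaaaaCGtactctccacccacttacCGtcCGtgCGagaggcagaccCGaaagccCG

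For ESR2 the stretch lies upstream of P2 at chr14:64761240-64761539 on the minus strand, with 4 of 9 CpGs called, and for PGR it lies within coding exon 1 at chr11:100999544-100999801 on the minus strand, with 6 of 22 called. The NR3C1 stretch of 53 bases lies at chr5:142783888-142783940 on the minus strand, at -689 to -637 bp from the MANE start and outside exons, and all 5 of its CpGs were called.

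ESR2 P2, 300 bases: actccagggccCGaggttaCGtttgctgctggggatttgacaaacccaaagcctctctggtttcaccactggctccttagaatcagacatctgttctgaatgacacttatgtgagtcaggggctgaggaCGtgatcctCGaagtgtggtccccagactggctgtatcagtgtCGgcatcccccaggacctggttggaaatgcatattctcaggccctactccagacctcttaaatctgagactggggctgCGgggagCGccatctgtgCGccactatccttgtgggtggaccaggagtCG
PGR P1, 258 bases: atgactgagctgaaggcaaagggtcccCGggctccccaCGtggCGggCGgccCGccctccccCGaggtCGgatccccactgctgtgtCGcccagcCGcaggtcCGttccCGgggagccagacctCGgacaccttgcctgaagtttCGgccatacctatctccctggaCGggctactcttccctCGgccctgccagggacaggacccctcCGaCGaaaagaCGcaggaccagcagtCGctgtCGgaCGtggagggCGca
NR3C1 P2, 53 bases: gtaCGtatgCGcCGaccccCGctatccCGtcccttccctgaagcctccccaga

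For NR3C2 the stretch lies in non-exonic sequence inside P1 at chr4:149364892-149365191 on the minus strand, with 15 of 24 CpGs called. For VDR it lies outside exons in P1 at chr12:48336054-48336353 on the minus strand, with 1 of 21 called. The THRB stretch lies in P1 at chr3:24536497-24536623 on the minus strand, at -282 to -156 bp from the MANE start and outside exons, with 3 of 13 called.

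NR3C2 P1, 300 bases: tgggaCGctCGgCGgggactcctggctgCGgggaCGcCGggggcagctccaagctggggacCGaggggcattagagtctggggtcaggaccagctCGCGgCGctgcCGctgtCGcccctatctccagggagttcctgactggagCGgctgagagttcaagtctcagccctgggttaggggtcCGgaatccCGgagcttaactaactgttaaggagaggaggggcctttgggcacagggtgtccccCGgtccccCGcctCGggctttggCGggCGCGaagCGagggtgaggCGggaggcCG
VDR P1, 300 bases: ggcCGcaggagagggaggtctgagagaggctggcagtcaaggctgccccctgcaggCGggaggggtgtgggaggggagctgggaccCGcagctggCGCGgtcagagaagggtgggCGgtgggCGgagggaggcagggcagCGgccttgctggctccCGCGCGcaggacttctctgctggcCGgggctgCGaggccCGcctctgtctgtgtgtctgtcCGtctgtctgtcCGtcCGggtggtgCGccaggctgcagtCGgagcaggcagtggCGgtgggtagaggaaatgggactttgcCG
THRB P1, 127 bases: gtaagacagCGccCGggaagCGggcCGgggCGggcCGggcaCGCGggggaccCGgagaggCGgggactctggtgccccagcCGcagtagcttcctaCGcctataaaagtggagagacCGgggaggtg

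Of the 1337 CpGs in the 19 windows, 337 had at least 10 RRBS reads in 1 or more libraries and 264 in all 3. Summed over CpGs, the RRBS coverage was 72638326 (HCT15), 130667913 (DU145) and 93623967 (PC3). A read is counted once at each CpG it covers, so these are not numbers of sequenced reads. The median coverage was 23, 33 and 26 at CpGs with at least 10 reads. The windows THRB P2, NR3C1 P1, ESR1 P1, ESR1 P2, VDR P3 and ESR2 P3 held no such CpG. These 6 windows contained 0 to 2 copies of CCGG or TCGA, against 2 to 29 in the other 13. A search of both strands found either motif in 96.6% of all windows, with a median of 11.

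CpGs inside CCGG and TCGA, which are the recognition sequences of the restriction enzymes MspI and TaqI, stood apart from all others in the RRBS data, a fact seen only after the data were examined. In member windows whose other CpGs were nearly unmethylated (14 combinations of a window and a library, with levels of 0.298% to 2.73%), the CpGs inside these motifs had medians of 48.6% to 67.9%. Across the genome, in bins of 200 bp whose other CpGs had a median of at most 3%, CCGG CpGs averaged 50.9%, 51.7% and 51.6% in HCT15, DU145 and PC3 and TCGA CpGs 52.5%, 53.0% and 53.3%. CpGs between the 14 other pairs of flanking bases averaged 0.763% to 1.39%. Between 37.6% and 37.9% of all covered CpGs lay in the motifs. The enzymes are not named in the sources used here, and the cause was not tested. Levels below are therefore given over every CpG and again without the CpGs of these motifs, the latter being an alternative chosen after seeing the data.

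**Figure D1:**
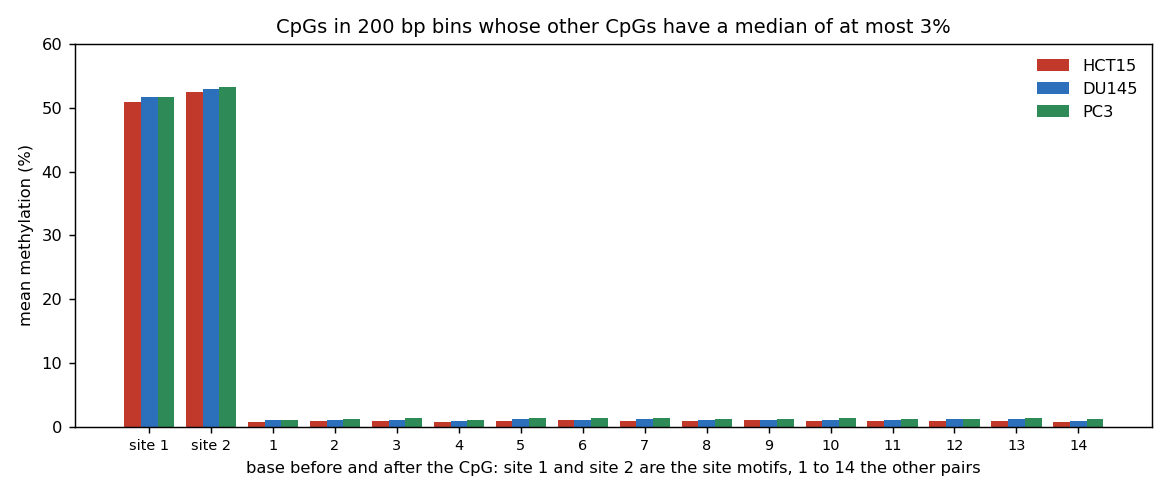
Mean RRBS methylation (%, vertical axis) of CpGs by the pair of bases around the CpG, in bins of 200 bp whose other CpGs had a median of at most 3%; site 1 is CCGG, site 2 is TCGA, 1 to 14 are the other pairs, and bars are the 3 RRBS libraries. Both site motifs stand above 50% in all 3 libraries, while no other pair passes 1.39%.

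Over all members, 124 of 269 CpGs tested were called between HCT15 and DU145, 122 of them higher in HCT15 and 2 higher in DU145. A call needed an adjusted p under 0.05 (Fisher's exact test on reads, Benjamini-Hochberg over all CpGs of the genome) and a difference of at least 25 percentage points. The background was 14.1% of all CpGs and 14.8% of promoter CpGs called, with 12.3% higher in HCT15 and 2.46% higher in DU145, while 46.1% of the members' CpGs were called. Between HCT15 and PC3, 121 of 292 member CpGs were called (41.4%), 117 higher in HCT15 and 4 higher in PC3. The background there was 15.1% of all and 15.0% of promoter CpGs, with 12.6% higher in HCT15 and 2.39% higher in PC3.

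The prostate lines differed at fewer member CpGs. Of 274 tested, 27 were called (9.85%), against a background of 15.5% of all CpGs and 10.1% of promoter CpGs, so the members' share was near that of promoters in general. PC3 was higher at 19, of which 18 were in ESR1 (background 4.34%), and DU145 at 8, of which 7 were in ESR2 (background 5.79%). This majority depended on the width: with 500 bp either side PC3 was higher at 4 and DU145 at 8 of 110 CpGs. Both comparisons with HCT15 use the same HCT15 library. Neighbouring CpGs often lie on the same reads and are not independent. Without the CCGG and TCGA CpGs the counts were 112 of 204, 107 of 220 and 24 of 204 for HCT15 against DU145, HCT15 against PC3 and PC3 against DU145, beside backgrounds of 16.0%, 16.2% and 10.8% of promoter CpGs.

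Of the 11 member windows with at least 5 covered CpGs in each library, HCT15 was at or above 50% in 7, DU145 in 1 (VDR P1) and PC3 in 2 (VDR P1 and ESR1 P4). The PC3 level at ESR1 P4 depended on the width, being 62.7% here, 45.2% with 500 bp either side and 41.4% with 2000 bp. Among all windows measured, 28.4%, 20.7% and 19.1% were at or above 50% in HCT15, DU145 and PC3. Over CpGs covered in all 3 libraries, 6 member windows differed by 25 points or more between HCT15 and DU145, 5 between HCT15 and PC3 and 1 between PC3 and DU145, where 14.4%, 15.3% and 8.56% of all windows did. HCT15 lay at least 25 points above both other lines in 5 windows, namely THRB P1, NR3C1 P2, ESR1 P5, PGR P1 and ESR2 P2. The share of all windows above both lines was not computed. Of 12769 gene 5′ windows of all genes, over shared CpGs, HCT15 lay as far above DU145 in 1572 and above PC3 in 1634. These counts take 1 pair at a time and leave out alternative 5′ ends, so they are not a background for the 5 windows. The member levels are descriptions of 1 library each.

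**Figure D2:**
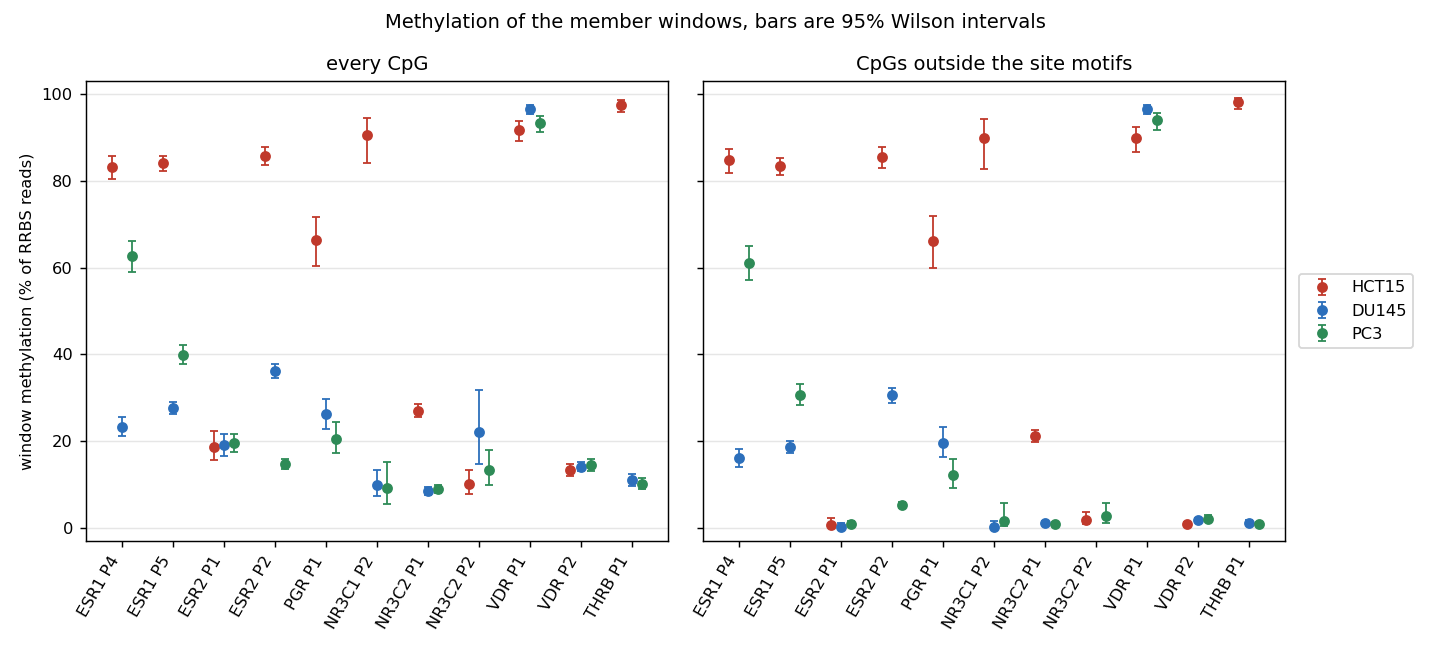
Methylation of the 11 windows (methylated RRBS reads as % of all reads, with 95% Wilson intervals for counting error), over every CpG (left) and without CpGs in CCGG or TCGA (right, where DU145 has too few CpGs in NR3C2 P2); colours are the 3 libraries. THRB P1 stands at 97.5% in HCT15 and at 11.1% and 10.2% in DU145 and PC3, while VDR P1 is above 90% in all 3.

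ESR1 encodes estrogen receptor alpha, the receptor through which estradiol drives growth of hormone-dependent breast tumours. Its gene has 5 windows, and its RRBS data fell almost wholly in P4, which holds the MANE start, and P5, whose 5′ end (chr6:152130242) lies downstream of that of P4 (chr6:152128331). In P4 the methylation degree was 83.2% in HCT15 (Wilson 95% interval 80.4 to 85.6). It was 62.7% in PC3 (59.1 to 66.1) and 23.4% in DU145 (21.3 to 25.6). Without the CCGG and TCGA CpGs it was 84.8% in HCT15, 61.1% in PC3 and 16.1% in DU145. The 3 lines thus had 3 separate levels in P4, with HCT15 highest and DU145 lowest.

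Within ESR1 P4 the covered CpGs outside the motifs sat from 445 to 711 bp after the P4 5′ end, around and after the MANE start. At the CpG 611 bp from the P4 5′ end, HCT15 had 34 of 34 reads methylated and PC3 41 of 41, and DU145 had 20 of 90. The Fisher's exact test gave an adjusted p of 4.58e-15 for HCT15 against DU145 and 2.37e-17 for PC3 against DU145, and HCT15 and PC3 were both fully methylated there (adjusted p = 1). At the CpG at 626 bp, PC3 had 2 of 21 reads methylated, DU145 11 of 45 and HCT15 11 of 17, so that PC3, level with HCT15 at 611 bp, was lowest at 626 bp. At the CpG between them, at 614 bp, PC3 had 35 of 41 reads methylated. PC3 was the most uneven of the libraries in this window, with CpGs from 0% to 100% (SD 36.0 over 16 CpGs outside the motifs), against SDs of 19.9 over 21 CpGs in HCT15 and 15.1 over 20 in DU145. In all, 21 of 25 CpGs were called between HCT15 and DU145, 9 of 21 between HCT15 and PC3 and 12 of 20 between PC3 and DU145, each time with the first-named line higher.

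In ESR1 P5 the methylation degree was 84.1% in HCT15 (82.4 to 85.8), 40.0% in PC3 (37.7 to 42.3) and 27.7% in DU145 (26.2 to 29.1). It was 83.3%, 30.7% and 18.7%, in the same order, without the motif CpGs. With 500 bp either side DU145 had 63.0% and PC3 59.9%, so their order turned. The cell lines diverged upstream of the 5′ end and lay close together just after it. Between 750 and 500 bp before the P5 5′ end, where most of the printed ESR1 stretch lies, HCT15 had 83.6%, DU145 3.91% and PC3 19.8%, outside the motifs. In the first 250 bp after it, the 6 CpGs had 85.2% in HCT15, 80.9% in DU145 and 81.0% in PC3.

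DU145 thus passed from almost unmethylated to highly methylated ESR1 CpGs over the P5 5′ end, while HCT15 was methylated on both sides. At the CpG 705 bp before the P5 5′ end, 38 of 40 HCT15 reads were methylated, 0 of 95 DU145 reads and 4 of 30 PC3 reads (Fisher's exact test, adjusted p = 2.17e-29 for HCT15 against DU145 and 2.86e-11 for HCT15 against PC3). At the CpG 90 bp after it, 28 of 30, 120 of 120 and 54 of 56 reads were methylated, and none of the 3 comparisons was called (Fisher's exact test, adjusted p = 0.181, 1 and 0.343). In the whole window HCT15 was higher at 27 of 41 CpGs and lower at 1 against DU145, and higher at 25 of 41 and lower at 1 against PC3. The exception was the same CpG of a CCGG or TCGA motif, 432 bp downstream, at 33.3% in HCT15, 95.2% in DU145 and 90.0% in PC3. ESR1 P3 held 3 covered CpGs in HCT15 and PC3 and none in DU145, and none was called.

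**Figure D3:**
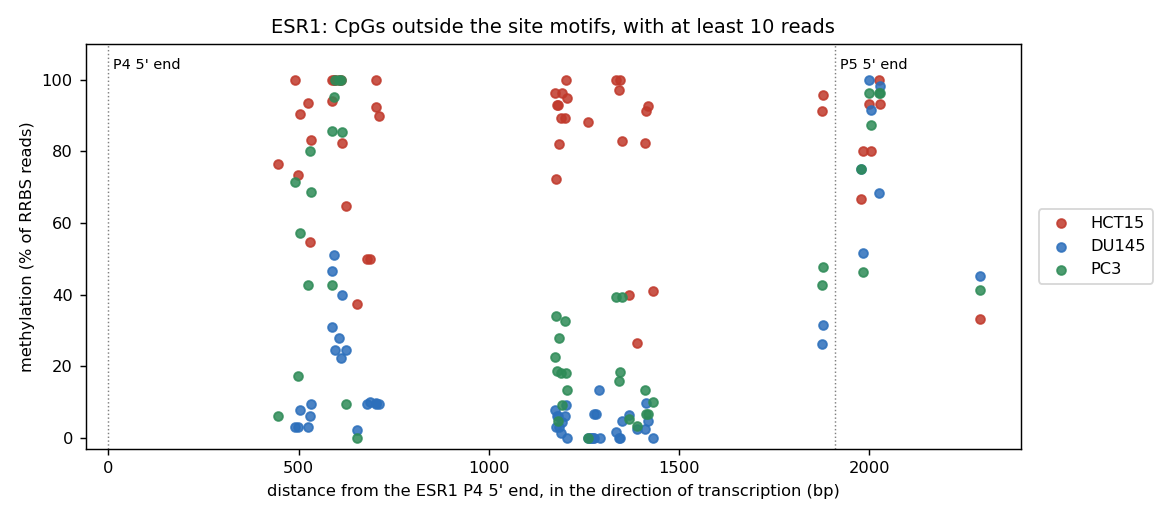
Methylation (% of RRBS reads, vertical axis) of ESR1 CpGs outside CCGG and TCGA with at least 10 reads, by distance in bp from the P4 5′ end (horizontal axis); each point is 1 CpG in 1 library and dotted lines mark the P4 and P5 5′ ends. Most HCT15 points lie near the top, DU145 points stay at or below 51.1% up to the P5 5′ end and rise just after it, and PC3 points spread from 0% to 100% in P4.

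ESR2 encodes estrogen receptor beta, the second estrogen receptor, expressed in colon and prostate epithelium among other tissues. Its P2 window, which holds the MANE start, had 3 separate levels, 85.8% for HCT15 (83.6 to 87.8), 36.2% for DU145 (34.6 to 37.9) and 14.7% for PC3 (13.7 to 15.9). Without the motif CpGs the levels were 85.5%, 30.6% and 5.27%. At the CpG 205 bp downstream of the 5′ end, 62 of 64 reads were methylated in HCT15, 70 of 216 in DU145 and 2 of 262 in PC3. All 3 pairs were called there (Fisher's exact test, adjusted p = 1.95e-20, 4.40e-58 and 5.49e-23 for HCT15 against DU145, HCT15 against PC3 and DU145 against PC3).

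The order at ESR2 P2 was the reverse of ESR1 P4 for the prostate lines. DU145 was higher than PC3 at 7 of 19 CpGs and lower at none, and 16 of the 33 ESR2 CpGs tested between the prostate lines passed the adjusted threshold, of which 7 reached 25 points. HCT15 was higher at 18 of 19 CpGs against DU145 and at 23 of 25 against PC3. Upstream of the 5′ end, in the printed ESR2 stretch, HCT15 had 60% and PC3 5.56% over 4 CpGs, with no covered CpG outside the motifs in DU145. ESR2 P1, the gene's 5′ end, was unmethylated in all lines, with 0.627%, 0.322% and 0.861% over 9 CpGs outside the motifs and none of 14 CpGs called in any comparison. Over every CpG, ESR2 P1 read 18.8%, 19.1% and 19.5%, the surplus resting on its 5 motif CpGs.

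PGR encodes the progesterone receptor, itself a target of estrogen receptor alpha. Its P1 window held 66.3% methylation for HCT15 (60.3 to 71.7), 26.2% for DU145 (22.9 to 29.8) and 20.6% for PC3 (17.2 to 24.4), and 66.2%, 19.7% and 12.2% without the motif CpGs. With 2000 bp either side PC3 had 44.2% and DU145 26.0%, so the order of the prostate lines turned. Most covered CpGs lay at the far end of the window in the coding part of exon 1, where the printed PGR stretch begins with the start codon. HCT15 was higher at 6 of 8 CpGs against each prostate line, and the prostate lines were not called apart at any of 13, with 0 also passing the adjusted threshold alone. At the CpG 806 bp downstream, 85.7% of 42 HCT15 reads were methylated, 6.67% of 90 DU145 reads and 5.80% of 69 PC3 reads (Fisher's exact test, adjusted p = 4.00e-18 and 1.27e-16 against HCT15). HCT15 levels varied between 38.9% and 95.2% among the 7 CpGs outside the motifs.

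NR3C1 encodes the glucocorticoid receptor, which mediates cortisol signalling in almost all cells and whose gene has a cluster of alternative untranslated first exons. Neither NR3C1 window held the MANE start, which lay beyond the downstream edge of P2. Only 6 CpGs of the P2 window were covered, all near the downstream edge, so the level describes that short stretch and not the window. It was 90.5% for HCT15 (84.1 to 94.5), 9.95% for DU145 (7.36 to 13.3) and 9.29% for PC3 (5.51 to 15.2). With 2000 bp either side the levels were 66.8%, 8.09% and 7.95%. The 5 CpGs of the printed NR3C1 stretch had 66.7% to 100% in HCT15, 0% to 1.79% in DU145 and 0% to 10.0% in PC3. All 5 were called against both lines (Fisher's exact test, adjusted p at most 1.93e-08 against DU145 and at most 8.89e-05 against PC3). The stretch was chosen for its called CpGs. The CpG of the motif was not called in any comparison. HCT15 coverage was 18 to 36 reads per CpG.

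NR3C2 encodes the mineralocorticoid receptor, which binds aldosterone and governs sodium uptake in the distal kidney and colon. Its windows carried the most CpGs of the 7 genes but mostly low levels. P1, the gene's 5′ end, had 27.1% for HCT15 (25.7 to 28.5), 8.48% for DU145 (7.55 to 9.52) and 8.99% for PC3 (8.12 to 9.94), and 21.2%, 1.17% and 0.937% outside the motifs. HCT15 methylation lay on the downstream side and grew with distance over the bins covered. It was 2.14% in the 250 bp before the 5′ end, 25.5% from 500 to 750 bp after it and 71.7% from 750 to 1000 bp. The prostate lines stayed at or under 2.10% in each of these bins. With 500 bp either side the HCT15 level of P1 was 8.97%.

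HCT15 was higher at 20 of 72 NR3C2 P1 CpGs against DU145 and at 22 of 75 against PC3, with 1 lower against PC3, a CpG of a motif. The last CpG of the printed NR3C2 stretch had 34 of 37 HCT15 reads methylated, 1 of 31 in DU145 and 1 of 34 in PC3 (Fisher's exact test, adjusted p = 4.46e-13 and 6.74e-14). The prostate lines were not called apart at any of 78 NR3C2 CpGs, and none passed the adjusted threshold alone. NR3C2 P2, which holds the MANE start, had no call in any comparison, with 1.83% in HCT15 over 17 CpGs and 2.73% in PC3 over 17 outside the motifs. DU145 had 4 such CpGs with 0 of 60 reads methylated, summed over the CpGs, which allows up to 6.02% (Wilson upper bound). Over every CpG, the NR3C2 P2 level in HCT15 was 10.2%, and with 2000 bp either side it was 40.1%, beside 10.7% in DU145 and 11.1% in PC3.

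VDR encodes the vitamin D receptor, which controls calcium uptake in the gut and epithelial differentiation. Its windows held few calls, with 1 of 47 CpGs called between HCT15 and DU145, 2 of 47 between HCT15 and PC3 and 1 of 47 between PC3 and DU145. P1 was methylated in every line, at 91.7% (89.1 to 93.7), 96.6% (95.5 to 97.4) and 93.3% (91.4 to 94.9) in HCT15, DU145 and PC3. P2, which holds the MANE start, was at 0.902%, 1.92% and 2.20% over 25 CpGs outside the motifs, and at 13.3%, 14.2% and 14.5% over every CpG. The 10 covered CpGs of P1 all lay in the printed VDR stretch, 478 to 777 bp after the 5′ end. The P1 level thus describes that stretch and not the 5′ end itself. Outside the motifs it was 90.0%, 96.6% and 94.0%. So this stretch of P1 and the window at the MANE start lay at opposite ends of the scale in all 3 lines.

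The exception in VDR P1 was the CpG 708 bp downstream of the 5′ end. HCT15 had 14 of 38 reads methylated (36.8%), DU145 116 of 118 (98.3%) and PC3 64 of 64 (100%), and it was called against both lines by Fisher's exact test, while the other CpGs of this window were 80.6% or higher in HCT15. In VDR P2, the CpG 201 bp downstream was methylated in 24 of 86 PC3 reads (27.9%), 2 of 166 DU145 reads and 0 of 104 HCT15 reads, and it was called against both.

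THRB encodes thyroid hormone receptor beta, which binds triiodothyronine and represses or activates its targets with ligand. Its P1 window, which holds the gene's 5′ end and the MANE start, had 97.5% for HCT15 (95.8 to 98.6), 11.1% for DU145 (9.75 to 12.6) and 10.2% for PC3 (9.08 to 11.5). Outside the motifs it was 98.2%, 1.19% and 0.976%. Single CpGs there had 92.3% to 100% in HCT15 (23 CpGs), 0% to 5.13% in DU145 (25) and 0% to 4.76% in PC3 (35). The HCT15 level ranked at the 98.5th percentile of 17719 windows, that of DU145 at the 27.5th and that of PC3 at the 18.5th. HCT15 was higher at 25 of 27 CpGs against DU145 and 26 of 27 against PC3, and 0 of 32 were called between the prostate lines.

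In THRB P1, no CpG outside the motifs was covered before the 5′ end, and in HCT15 and DU145 none in the first 250 bp after it. Downstream the levels differed little between bins, at 97.2%, 0.467% and 0.791% from 500 to 750 bp and 98.8%, 2.92% and 1.44% from 750 to 1000 bp. THRB P3, an alternative 5′ end inside the gene, had 4 covered CpGs with 96.5%, 99.2% and 91.8%, fewer than the 5 needed for a window level. Only 2 of them lay outside the motifs, between 250 and 500 bp downstream. The only calls there were for 1 motif CpG, at 62.2% in PC3, 95.8% in HCT15 and 100% in DU145. So at the covered CpGs outside the motifs, DU145 and PC3 were nearly unmethylated downstream of the THRB gene start. Downstream of the internal 5′ end they were methylated at these few CpGs, and HCT15 was methylated at both places.

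**Figure D4:**
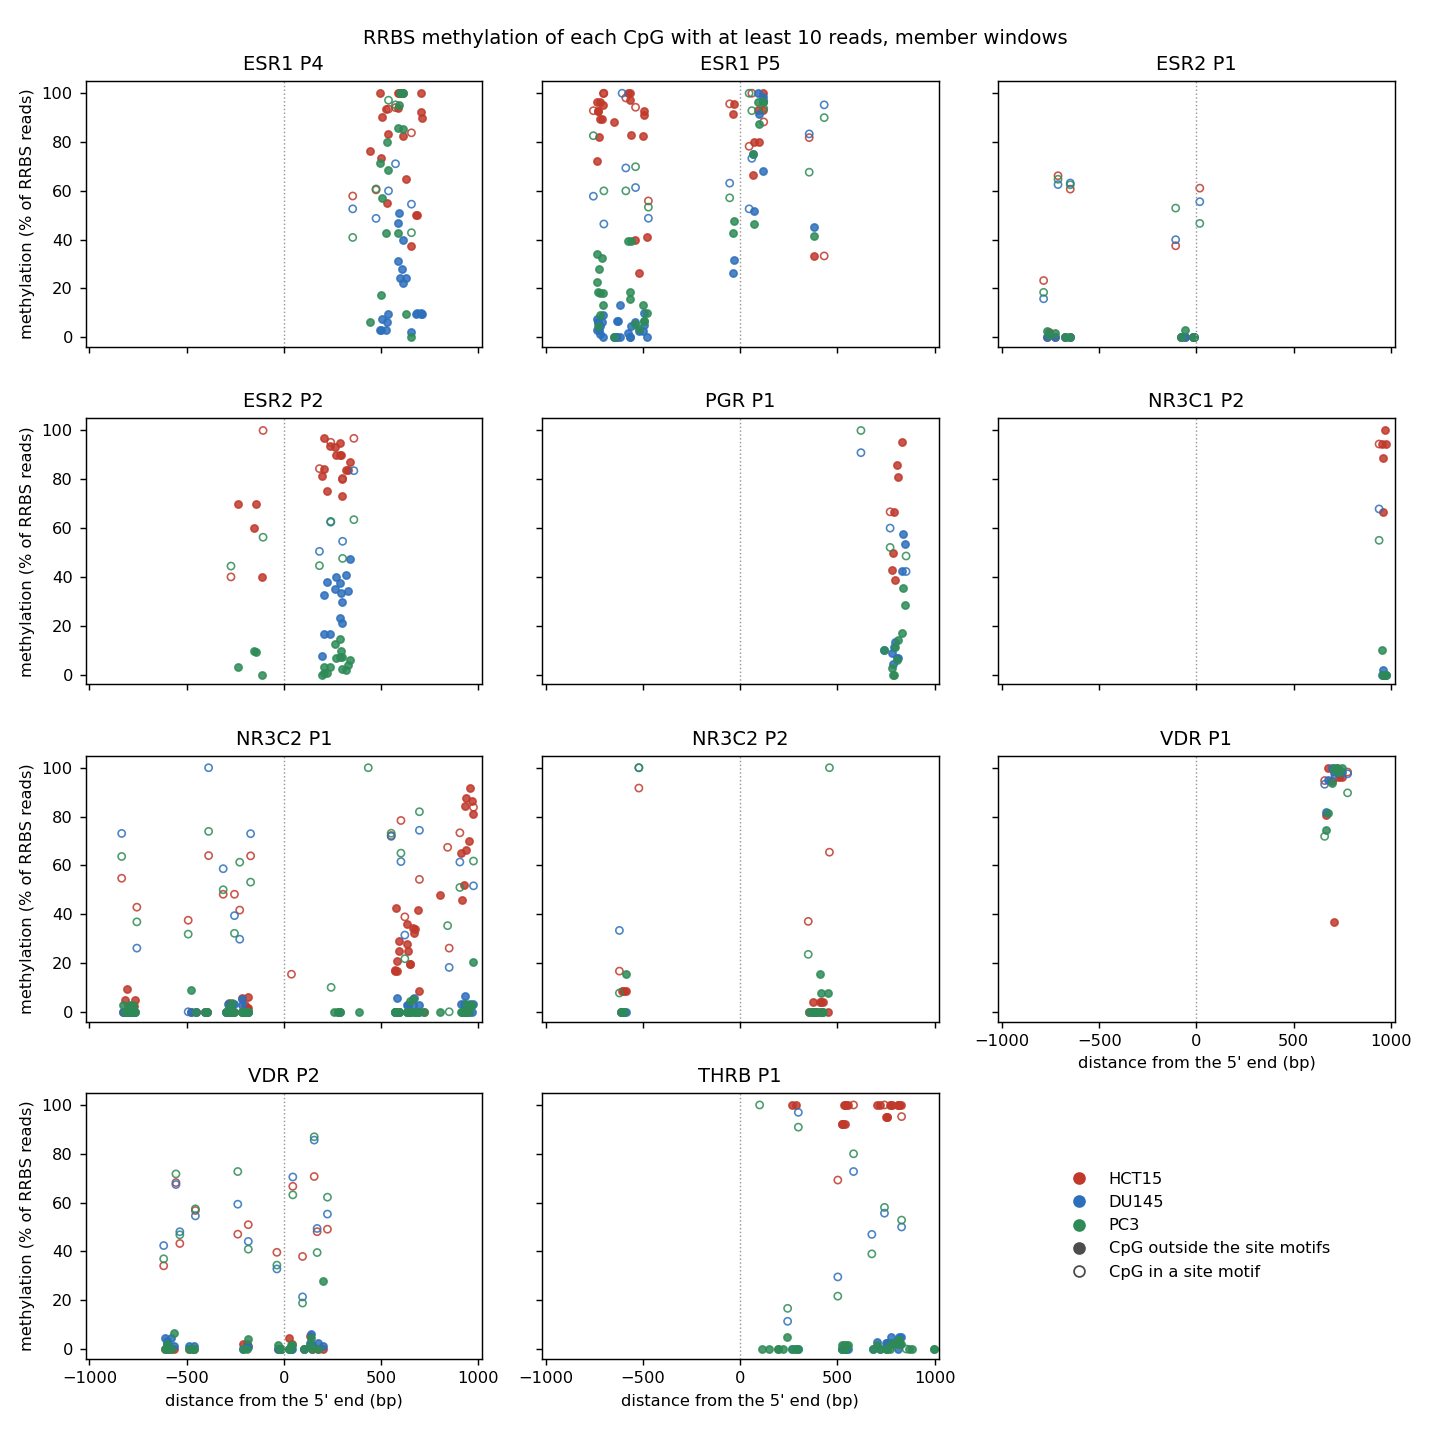
RRBS methylation (%, vertical axis) of each CpG with at least 10 reads in the 11 windows with 5 or more covered CpGs in each library, by distance from the 5′ end in bp; colours are the 3 libraries, filled points lie outside CCGG and TCGA and open points inside. HCT15 points lie at the top and prostate points at the bottom in THRB P1 and NR3C1 P2, all colours overlap in VDR and ESR2 P1, and open points spread over the middle of the scale even where filled points are at the bottom.

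In MBD-seq the 15 libraries held 10040 (DU145 with MethylMagnet) to 7344098 fragments (HCT15 with MethylMiner), so that a 3-fragment floor stood at 299 to 0.408 fragments per 1000000. Library labels were checked outside the member windows, using depth at CpGs methylated in only 1 RRBS library. These sets held 23390 CpGs (HCT15), 4094 (DU145) and 2386 (PC3). The depth was highest at the CpGs of the labelled line in 12 libraries. The 3 others were those of MethylMiner, whose depth relative to the library mean was 2.14, 2.12 and 2.42 at the HCT15, DU145 and PC3 sets in the HCT15 library, 3.53, 2.73 and 3.68 in the DU145 library and 4.25, 2.75 and 3.56 in the PC3 library. Member fragments are therefore listed by kit, and the number of windows passing the test is given with and without this kit. Shares averaged over kits include it unless stated.

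At THRB P1, the prostate lines had at most 1 fragment in every kit but MethylMiner, and HCT15 had 3 to 15. In HCT15 the window had 3, 8, 14, 15 and 5 fragments with MethylMagnet, MethylCollector, MethylCollector Ultra, MethylCap and MethylMiner. In DU145 it had 0, 0, 0, 0 and 6, and in PC3 0, 0, 0, 1 and 5. Relative to the library's mean depth the HCT15 values were 74.5, 44.9, 26.2, 5.23 and 0.938. In MethylMiner the relative depth of HCT15 was below those of DU145 (2.26) and PC3 (3.48). The depth limits the contrast in the other kits. HCT15 had 50.02, 30.1, 21.4 and 3.86 fragments per 1000000 with MethylMagnet, MethylCollector, MethylCollector Ultra and MethylCap, where the 0 fragments of DU145 allow up to 299, 101, 98.9 and 3.64. Only with MethylCap did HCT15 pass the limit of DU145, and barely, so in the other 3 kits the order of these lines could not be told at this depth. The 0 fragments of PC3 allow up to 12.4, 35.3 and 5.18 with MethylMagnet, MethylCollector and MethylCollector Ultra, so HCT15 passed that limit with the first and the last, with MethylMagnet on 3 fragments.

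At ESR1 P4 the fragments in the same kit order were 3, 2, 8, 28 and 4 in HCT15, 0, 0, 0, 0 and 3 in DU145 and 3, 0, 5, 3 and 5 in PC3. At ESR1 P5, whose window overlaps that of P4 at its edge, they were 2, 7, 5, 17 and 7 in HCT15, 0, 0, 0, 0 and 3 in DU145 and 3, 1, 5, 3 and 1 in PC3. DU145 fragments appeared with MethylMiner only, while HCT15 had fragments with every kit at both windows and PC3 with all but MethylCollector at P4. With MethylCap, ESR1 P4 had 7.20 fragments per 1000000 in HCT15 and 3.16 in PC3, and 0 fragments in DU145 allow up to 3.64. With the low-yield kits DU145 could not be told from the other lines: its floor was 299 fragments per 1000000 with MethylMagnet, above the value of HCT15.

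ESR2 P2 had 2, 6, 3, 12 and 9 fragments in HCT15, 0, 0, 1, 0 and 2 in DU145 and 1, 0, 0, 1 and 6 in PC3. PGR P1 had 0, 1, 4, 7 and 5 in HCT15, 0, 0, 0, 1 and 3 in DU145 and 0, 1, 1, 1 and 3 in PC3. NR3C1 P2 had 0, 0, 5, 11 and 4 in HCT15 and none in the prostate lines apart from MethylMiner, with 1 in DU145 and 3 in PC3. HCT15 carried most fragments at these windows by number, and its libraries were also the deepest with 4 of the kits. Scaled to library size and averaged over kits, PGR P1 was not highest in HCT15, with a share of 42.1% beside 42.4% in PC3. NR3C2 P1 had 3, 6 and 6 in HCT15 with MethylCollector Ultra, MethylCap and MethylMiner, and 5 and 3 in DU145 and PC3 with MethylMiner alone. NR3C2 P2, with low RRBS levels, had 1, 0, 0, 2 and 8 in HCT15 and 2 with MethylMiner in each prostate line.

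VDR P1, methylated in all lines by RRBS, was captured in all 3 by MethylCollector Ultra, MethylCap and MethylMiner. Its fragments were 0, 1, 10, 25 and 21 in HCT15, 0, 0, 4, 15 and 8 in DU145 and 0, 0, 9, 10 and 4 in PC3. Relative depth with MethylCap was 8.85, 27.4 and 15.5, and the windows ranked at the 93.8th, 99.8th and 98.1st percentile of their libraries. VDR P2, unmethylated outside the motifs, had no fragments in HCT15 or PC3 except with MethylMiner (6 and 1) and 1 with MethylCap and 5 with MethylMiner in DU145. ESR2 P1, also unmethylated, had at most 1 fragment per library outside MethylMiner and 4 to 7 with MethylMiner.

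The 6 windows without RRBS data gave only MBD-seq values. VDR P3 had 0, 0, 1, 7 and 15 fragments in HCT15, 0, 0, 0, 0 and 6 in DU145 and 0, 0, 1, 1 and 6 in PC3. ESR2 P3 had 8, 4 and 5 fragments in HCT15, DU145 and PC3 with MethylCap and was captured in all lines by that kit. ESR1 P1, ESR1 P2, NR3C1 P1 and THRB P2 had at most 1 fragment in any library outside MethylMiner. Those 4 windows hold 7 to 18 CpGs each, and their methylation could not be read at this depth.

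Fragment numbers of the member windows were set against RRBS levels, without scaling for CpG number and without a background from other genes. With MethylCap, the 7 HCT15 windows at 60% or more had 7 to 28 fragments each and the 4 windows under 30% had 0 to 6. The ranges thus did not overlap but lay next to each other, with 7 at PGR P1 and 6 at NR3C2 P1. With MethylCollector Ultra the ranges met (3 to 14 and 0 to 3), and with MethylMagnet (0 to 3 and 0 to 1) and MethylCollector (0 to 8 against 0 in every weakly methylated window) they overlapped at 0. With MethylMiner they were 4 to 21 and 6 to 8, so the groups overlapped. In PC3, 2 windows at 60% or more had 3 and 10 fragments with MethylCap and 8 windows under 30% had 0 or 1.

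**Figure D5:**
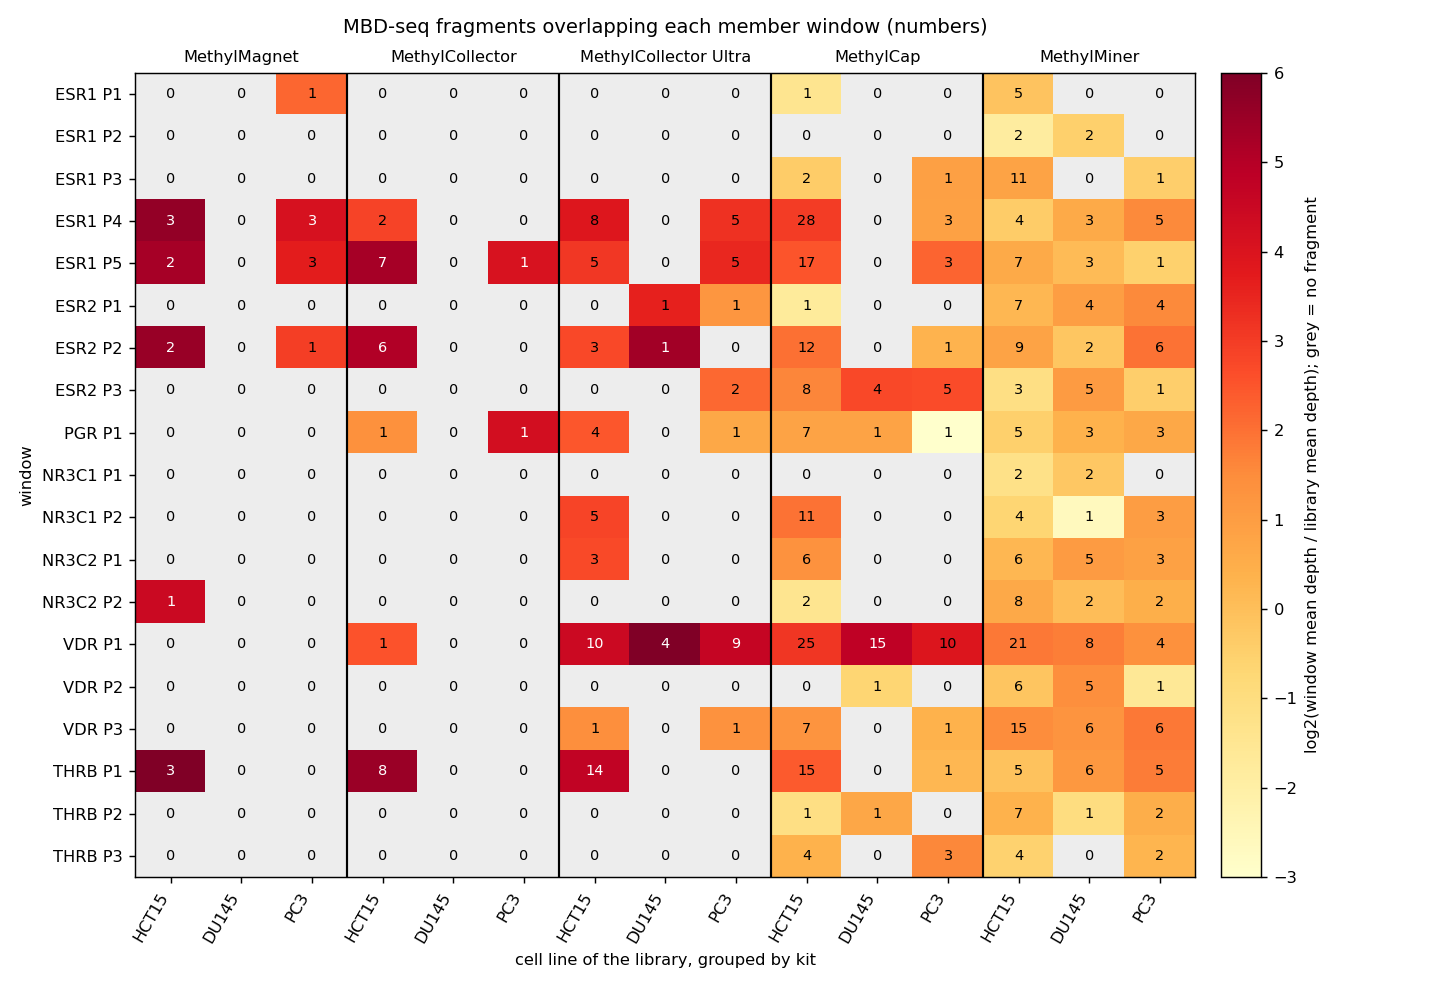
MBD-seq fragments overlapping each of the 19 windows (rows, number in each cell) in the 15 libraries (columns, grouped by kit), coloured by the log2 ratio of the window's mean depth to the library's mean depth, grey where there is no fragment. THRB P1 is filled for HCT15 in the first 4 kits and nearly empty for DU145 and PC3, VDR P1 is filled in all lines with MethylCollector Ultra and MethylCap, and the MethylMiner columns hold fragments in most windows.

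Cell lines were compared within kits by an exact permutation test on each library's share of a window's fragments, scaled to library size, for the 16 member windows with at least 10 fragments in all. Before adjustment, 3 windows had p under 0.05 in this exact permutation test: ESR1 P5 (p = 0.0177), THRB P1 (p = 0.0309) and ESR1 P4 (p = 0.0386), all with HCT15 highest. After Benjamini-Hochberg adjustment over 22939 windows none passed, the adjusted p of these 3 being 0.481, 0.481 and 0.495 in the exact permutation test. Of all windows, 8.76% had an unadjusted p under 0.05 and 0.00% an adjusted one, with HCT15 highest in 5.24%, DU145 in 0.440% and PC3 in 3.08%. The smallest p the design allows is 0.000772, which only a window with fragments in all 5 kits can reach. A kit with no fragment in a window adds nothing to the test there. THRB P2, THRB P3, ESR1 P3 and VDR P2 had fragments in 2 kits, so their p could not fall under 0.05. Libraries of unequal depth are also not fully exchangeable. Averaged over kits, MethylMiner included, the HCT15 share was 78.4% at THRB P1, 64.4% at ESR1 P4 and 57.2% at ESR1 P5. Libraries with 0 fragments enter these shares as 0, whatever their depth allows. Without MethylMiner the same number of windows had p under 0.05 (3 of 9 tested), and without MethylMagnet, MethylCollector or MethylCap none had. Without MethylCollector Ultra there were 2, ESR1 P5 and ESR2 P2.

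For ESR2 P2, NR3C1 P2, PGR P1 and VDR P1 the exact permutation test gave p = 0.275, 0.222, 0.384 and 0.630. NR3C1 P2 had fragments in 3 kits, with MethylCollector Ultra and MethylCap in HCT15 only. Its p could therefore not fall under 0.05 and decides nothing there. NR3C2 P2 had a share of 80% in HCT15, which rests on 15 fragments over 3 kits, 12 of them with MethylMiner. Each of these values rests on 0 to 25 fragments per library.

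Of 41 other nuclear receptor genes, 23 had a gene 5′ window measured in all 3 lines, and 4 of these differed by 25 points or more between any 2 lines, against 2411 of 12769 genes (18.9%) overall. The median range was 1.53 points over these receptors and 2.71 over all genes. RORA, which encodes an orphan receptor of the circadian clock, had 96.0%, 47.4% and 11.0% in HCT15, DU145 and PC3. Its paralog RORB had 93.2%, 29.8% and 13.1%. HNF4A, a regulator of liver and gut epithelial genes, ran the other way with 19.4%, 95.9% and 64.7%, and its paralog HNF4G had 8.14%, 33.5% and 15.0%. Without the motif CpGs the values were 95.5%, 43.2% and 3.31% for RORA, 94.0%, 21.2% and 2.21% for RORB, 1.32%, 94.3% and 48.1% for HNF4A and 0.687%, 29.8% and 7.74% for HNF4G.

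Among the 23 receptors, RORB had the pattern nearest to 6 of the 11 member windows by the Euclidean distance over the 3 levels. These levels include the motif CpGs, and distances without them are not given here. Much of the level of VDR P2, ESR2 P1 and NR3C2 P2 rests on those CpGs. The distance was 8.88 points for ESR2 P2, 20.4 for NR3C1 P2, 22.1 for THRB P1, 28.4 for ESR1 P5, 29.6 for PGR P1 and 52.0 for ESR1 P4. ESR1 P4 thus had no close counterpart among the gene 5′ windows of the receptors measured, and their alternative 5′ ends were not compared. NR5A1 was nearest to VDR P1 (4.99 points), NR4A3 to VDR P2 (1.61), RARG to ESR2 P1 (4.58) and NR3C2 P2 (3.21) and NR1H3 to NR3C2 P1 (14.3).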

How the data were processed

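The authors deposited, for RRBS, per-CpG counts of methylated and total reads (strands summed, lowest coverage 6, service provider's pipeline, aligner not given in the sources used here). For MBD-seq they deposited depth (coverage signal) of unscaled, uniquely mapped, duplicate-collapsed read pairs, mapped with Bowtie to NCBI build 37 (hg19). The same amount of sheared DNA went into each kit. Single fragments were rebuilt here from rises and falls of the depth. Member genes and gene lists were chosen with earlier results of these data known.

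Windows came from the GENCODE annotation on GRCh37, with alternative 5′ ends grouped within 1000 bp if they held a marked transcript. CpGs needed 10 reads, window levels 5 CpGs and the MBD-seq test 10 fragments in all. CpGs were compared by two-sided Fisher's exact tests with Benjamini-Hochberg adjustment over the genome. MBD-seq windows were compared by permuting the cell lines within kits, with 1296 distinct relabellings. Every member window was described. Other receptors were named at a range of 25 points or more, or as nearest to a member window. The sequence rule took the 300 bp with the most called CpGs; UTR bases are not printed, so the stretch free of UTR with the most called CpGs is shown. Scripts were tested on simulated data and used Python 3.11.15, SciPy 1.17.1, NumPy 2.4.6, pandas 2.3.3, statsmodels 0.14.6, numba 0.67.0 and matplotlib 3.10.9.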

Additional observations from a re-analysis of the deposited data

How the results depend on the processing

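Under other windows, coverage limits, thresholds and kits, 21 of 36 summary values stayed near the reported ones, 14 moved and 1 turned its direction. The calls moved with the width of the windows and with the choice of 5′ ends. Between HCT15 and DU145 there were 124 calls (46.1% of CpGs tested), against 29 (27.1%) with 500 bp either side, 233 (58.5%) with 2000 bp and 52 (39.7%) at gene 5′ ends only. Between HCT15 and PC3 there were 121 (41.4%), against 37 (28.7%), 222 (51.3%) and 56 (41.8%). Between PC3 and DU145 there were 27 (19 higher in PC3), against 12 (4 higher in PC3 and 8 in DU145, so the majority turned), 48 (34 higher in PC3) and 0, and 7 with a difference of at least 50 points. HCT15 lay 25 points above both other lines in 5 windows, and in 1 of 5 measured with 500 bp either side. These counts have no background over all windows. Fewer CpGs enter the narrower windows and the gene ends, but with 500 bp the share called against HCT15 was lower too, and the cause was not tested. Under the planned settings 38 of 183 window levels moved. A lowest coverage of 6 or 20, the limit of 500 reads and the removal of CCGG and TCGA CpGs (added after seeing the data) kept the numbers of calls within 1.5 times. The last of these moved 22 of 32 window levels.

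In MBD-seq, 3 member windows had an unadjusted p under 0.05, against 1 with 500 bp either side and 0 to 3 when each kit was left out in turn. With 4 kits the smallest possible p is 0.00463, for a window with fragments in each of them. No paired analysis was possible because each group holds 1 library, and kits were already blocks.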

Other observations

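Genes that work with the receptors were measured over the gene's 5′ window, all CpGs included, and those that differed by 25 points or more were named after their values were seen. Of 19 coregulators and chaperones measured in all 3 lines, 2 did, with a median range of 1.27 points beside 2.71 over all genes. GATA2, a zinc finger transcription factor, had 97.6% in HCT15, 79.0% in DU145 and 20.8% in PC3. PRMT1, an arginine methyltransferase that coactivates several receptors, had 27.05%, 94.0% and 73.8%.

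Of 14 ligand enzymes and response genes measured, 6 differed by 25 points or more, with a median range of 13.8 points. SGK1, a kinase induced by glucocorticoids and aldosterone, had 92.9%, 35.9% and 21.2% in HCT15, DU145 and PC3. SRD5A2, which reduces testosterone to dihydrotestosterone, had 89.6%, 21.1% and 55.9%. CYP24A1, which breaks down active vitamin D, had 51.9%, 14.0% and 55.2%, and DIO3, which inactivates thyroid hormone, had 51.1%, 59.6% and 29.4%. HSD17B1, which makes estradiol from estrone, had 80.5%, 98.5% and 71.7%, and GREB1, an estrogen-induced gene, had 92.2%, 65.7% and 70.2%. Over all genes 18.9% differed by as much. These levels come from 1 library per cell line, and differences between genes of a list were not tested.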
